A study of Mus musculus with 16 samples.

Results

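Bile acid handling in the ileum was described here through 8 genes, chosen by name and found in full among the 55359 genes of the count table: Fabp6 (ENSMUSG00000020405), Slc10a2 (ENSMUSG00000023073), Slc51a (ENSMUSG00000035699), Slc51b (ENSMUSG00000053862), Fgf15 (ENSMUSG00000031073), Nr1h4 (ENSMUSG00000047638), Nr0b2 (ENSMUSG00000037583) and Abcc3 (ENSMUSG00000020865). RNA was sequenced from the ileum and duodenum of 8 adult male mice of C57BL/6N background fed standard chow, 18 weeks after tamoxifen, with 4 libraries in each of 4 groups. All mice carried the floxed alleles Neurog3f/f. Mutants (animals NFVCT27, NFVCT38, NFVCT153 and NFVCT190) also carried Villin-CreERT2, a tamoxifen-activated recombinase under an intestinal epithelial promoter, and controls (NF17, NF29, NF32 and NF152) did not. Neurog3 is needed for gut epithelial cells to become enteroendocrine, so the genotype comparison asks how bile acid genes stand in an intestine depleted of enteroendocrine cells. Which cell types express the members was not resolved in this bulk RNA. Every animal gave both tissues. The transgene itself and the loss of Neurog3 cannot be told apart, since no control carried the recombinase, and tamoxifen treatment of the controls is not stated separately.

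Bile acids are made in the liver, released into the duodenum and recovered in the ileum. Slc10a2 (ASBT) takes them up from the lumen with sodium, Fabp6 (the ileal bile acid binding protein) carries them through the enterocyte, and Slc51a with Slc51b (OSTα and OSTβ) forms the heteromer that exports them to the portal blood. Bile acids inside the cell bind Nr1h4 (FXR), a nuclear receptor that works with a retinoid X receptor and is known to raise Fgf15, Fabp6, Slc51a, Slc51b and Nr0b2. Fgf15 is the hormone that travels to the liver and lowers bile acid synthesis, Nr0b2 (SHP) is a corepressor, and Abcc3 (MRP3) is a basolateral exporter of conjugated bile acids and other organic anions.

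Libraries held 8213889 to 18093452 counts in mutant ileum, 9513823 to 25617964 in control ileum, 10096736 to 35076714 in mutant duodenum and 11365476 to 18134135 in control duodenum. The targeted gene checked the labels: Neurog3 had 0 counts in all 8 mutant libraries, against 71 counts over the 4 control ileal libraries and 98 over the 4 control duodenal ones. Of 7 endocrine genes checked, Neurog3 among them, 7 were called lower in mutant ileum and 5 in mutant duodenum. Some endocrine RNA remained. Chgb had 89 counts in mutant against 8263 in control ileum, and 166 in mutant against 12430 in control duodenum. Pyy had 56 counts in mutant and 85 in control duodenum. Most regional markers stood on the labelled side. Of 6 distal genes tested, 5 were called higher in the ileum in each genotype. Of 10 proximal genes, 7 were called lower in the ileum in mutants and 8 in controls. Hoxb9, a homeobox gene of the posterior gut, averaged 26.3 CPM (read counts scaled to library size) in mutant ileum and 0.0510 CPM in mutant duodenum, and 24.2 CPM in control ileum against 0.0232 CPM in control duodenum. Gata4, a factor of the proximal intestine, averaged 16.6 CPM in mutant ileum and 150.2 CPM in mutant duodenum, and 17.4 CPM in control ileum against 158.6 CPM in control duodenum. Bcl6, of the distal list, averaged lower in the ileum, at 15.3 against 18.6 CPM in mutants and 13.7 against 17.9 CPM in controls. Of 15 enterocyte markers, 0 were at 0 in any group. Genes of the pancreatic acinar cell were present in every library, at 0.0511% to 0.561% of counts in mutant ileum and 0.131% to 0.935% in control ileum, and at 2.02% to 21.1% in mutant duodenum and 7.43% to 16.6% in control duodenum.

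The members were ranked by level per exon length, as RPKM (CPM divided by exon length in kilobases), within each group. In mutant ileum Fabp6 led with 1661 ± 888 RPKM, ahead of Slc10a2 with 287.6 ± 44.3 and Slc51b with 269.8 ± 47.3 RPKM (SD, n = 4). Slc51a followed with 161 ± 16.1, Nr1h4 with 81.0 ± 14.1, Abcc3 with 23.1 ± 6.0 and Fgf15 with 2.48 ± 2.92 RPKM, and Nr0b2 was at 0. Control ileum had the same order, with Fabp6 at 6305 ± 1898 and Slc10a2 at 300.3 ± 61.3 RPKM (SD, n = 4). Slc51b stood at 291.9 ± 62.4, Slc51a at 191.9 ± 22.9, Nr1h4 at 76.4 ± 2.9, Abcc3 at 25.1 ± 9.7, Fgf15 at 0.912 ± 1.015 and Nr0b2 at 0.217 ± 0.127 RPKM. The ranges of Slc10a2 and Slc51b overlapped in both genotypes, so that pair is not ordered beyond its spread. The ranges of the other neighbours from Fabp6 down to Fgf15 did not overlap in mutant ileum. The duodenum had another order. In mutant duodenum Slc51b led with 62.1 ± 26.3 RPKM, followed by Abcc3 with 46.1 ± 9.5, Slc51a with 40.2 ± 14.4 and Nr1h4 with 22.0 ± 7.2 RPKM, and in control duodenum the same genes had 72.2 ± 23.3, 53.2 ± 8.5, 45.7 ± 11.2 and 19.0 ± 2.0 RPKM (SD, n = 4). The neighbours among Slc51b, Abcc3 and Slc51a overlapped there in both genotypes. Nr0b2 (3.08 ± 1.85 RPKM in mutant and 4.68 ± 0.89 in control duodenum) came next, and Slc10a2 and Fabp6 stayed under 1 RPKM in every duodenal library.

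**Figure D1:**
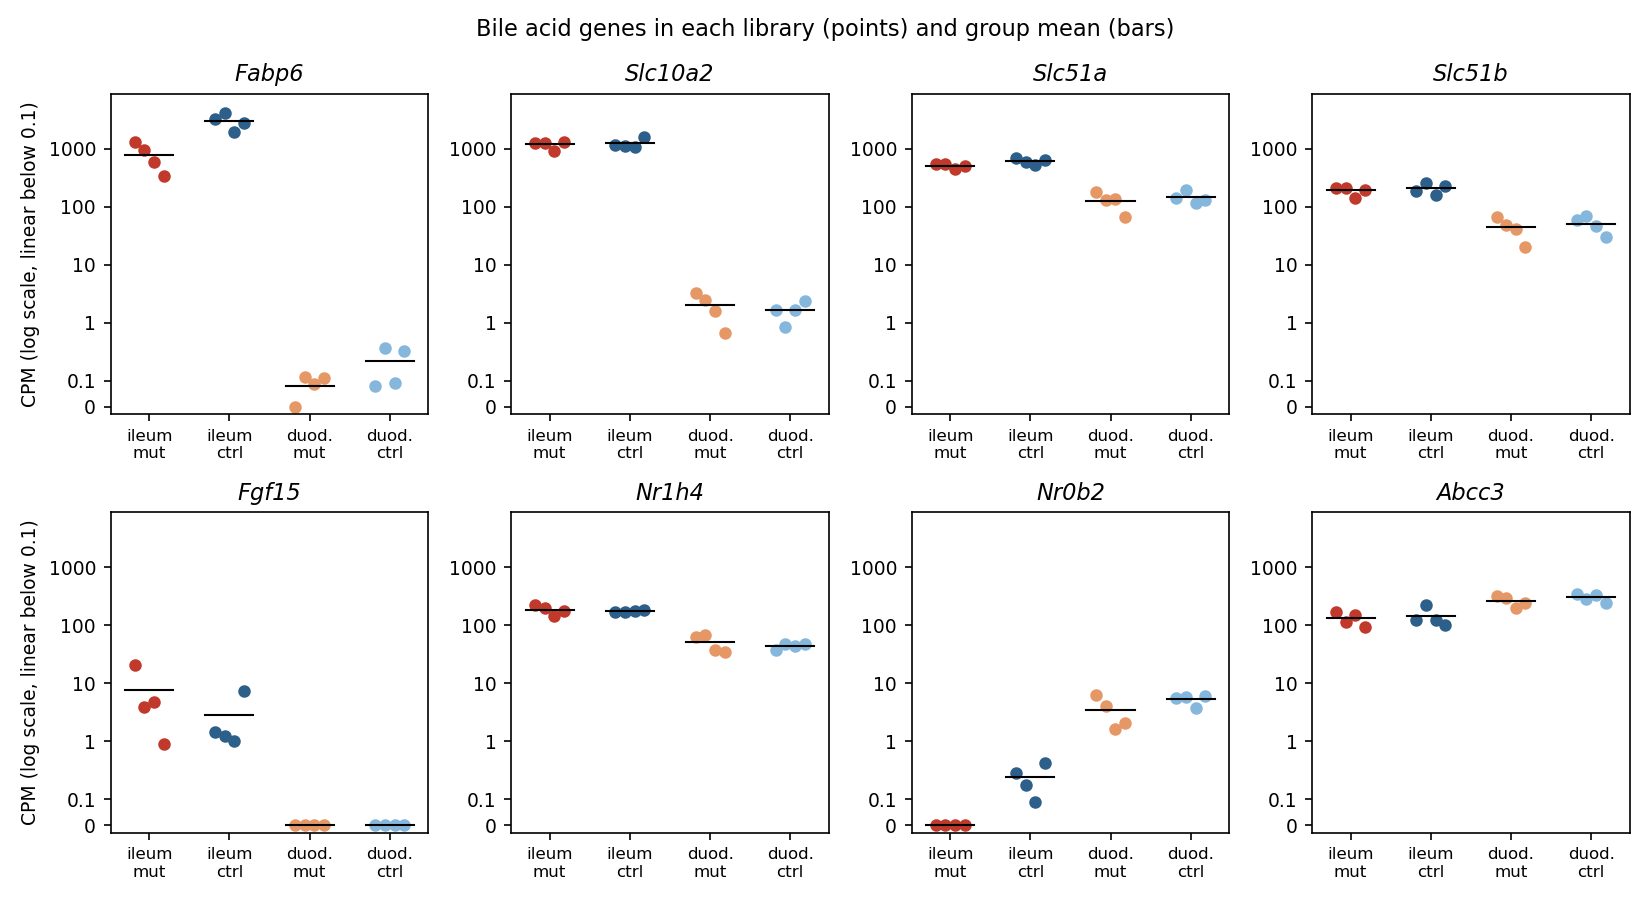
CPM of the 8 genes in every library (points) with the group mean (bars), on a log axis that is linear below 0.1, for mutant ileum, control ileum, mutant duodenum and control duodenum. Fabp6 in mutant ileum lies below every control ileal library, Slc10a2 and Nr1h4 overlap between genotypes, and Nr0b2 and Abcc3 are the 2 genes that stand higher in the duodenum.

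Ileum against duodenum was tested first within each genotype, which places the members along the intestine. Fabp6, Slc10a2, Slc51a, Slc51b and Nr1h4 were higher in the ileum in both genotypes, Fgf15 in controls, and Nr0b2 and Abcc3 were lower there in both. In mutants 7 of the 8 members were called by edgeR's quasi-likelihood test at an adjusted p under 0.05, 5 higher and 2 lower, where 32.3% of the 14950 genes tested were called (15.2% higher, 17.1% lower). In controls 8 of 8 were called, 6 higher and 2 lower, where 35.9% of 14976 genes were called (17.1% higher, 18.7% lower). The member not called in mutants was Fgf15. In this bulk RNA, fewer enterocytes and less RNA per enterocyte cannot be told apart. In both genotypes the ileal and duodenal libraries of all 8 members did not overlap, as for 32.8% of the genes tested in mutants and 34.7% in controls. The median log2 difference, ileum over duodenum, of the members tested was 2.04 in mutants and 2.05 in controls, beside -0.02 and 0.01 over all genes tested.

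Fabp6, the carrier, had the widest span. Mutant libraries held 5197 to 15115 Fabp6 counts in the ileum and 0 to 3 in the duodenum, and control libraries 21543 to 89654 in the ileum and 1 to 6 in the duodenum, which set the duodenal level at 0.0114% of the ileal level in mutants and 0.00759% in controls. The log2 difference of Fabp6, ileum over duodenum, was 13.09 (SE 0.70, adjusted p = 4.3e-06, edgeR) in mutants and 13.65 (SE 0.42, adjusted p = 1.4e-10) in controls. Slc10a2, the apical uptake transporter, lay between 919 and 1301 CPM in mutant ileum, against 3.28, 2.51, 1.59 and 0.662 CPM in the duodenum of NFVCT27, NFVCT38, NFVCT153 and NFVCT190. It lay between 1071 and 1622 CPM in control ileum, against 1.63, 0.841, 1.67 and 2.37 CPM in the duodenum of NF17, NF29, NF32 and NF152, and values below keep these orders of animals. That is a log2 difference of 9.18 (SE 0.40, adjusted p = 1.5e-07) in mutants and 9.52 (SE 0.29, adjusted p = 1.4e-10) in controls.

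The exporter subunits and the receptor were present in both tissues, with a smaller difference. Slc51a stood 3.94-fold higher in mutant ileum than in mutant duodenum and 4.21-fold higher in control ileum than in control duodenum. Slc51b stood 4.27-fold higher in mutants and 4.06-fold higher in controls, and Nr1h4 3.62-fold higher in mutants and 4.03-fold higher in controls. The largest adjusted p among these 6 was 0.00107, for Slc51b in mutants. Abcc3, the basolateral exporter of conjugated bile acids and other anions, ran the other way: it was 2.03-fold lower in mutant ileum (adjusted p = 0.0033) and 2.12-fold lower in control ileum (adjusted p = 0.00641) than in the duodenum.

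Nr0b2, the corepressor, had 0 counts in each of the 4 mutant ileal libraries, against 74, 69, 56 and 19 counts in mutant duodenum. Control ileum held 8, 2, 1 and 10 counts, against 68, 63, 41 and 110 in control duodenum. Against a floor of 3 counts over the group's 4 libraries, Nr0b2 was at least 52.0-fold lower in mutant ileum than in mutant duodenum (adjusted p = 0.000748), and it was 18.7-fold lower in control ileum than in control duodenum (log2 difference -4.22, SE 0.34, adjusted p = 1.1e-06). Acinar genes were lower in the ileum too, with 19 of 19 called in each genotype, and their part in the Nr0b2 difference was not tested.

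Fgf15, the hormone, had 298 counts over the mutant and 241 over the control ileal libraries, and 0 counts in all 8 duodenal libraries. It was at least 139-fold higher in mutant ileum than in mutant duodenum and at least 57.0-fold higher in control ileum than in control duodenum. One ileal library weighed heavily in each: without NFVCT27 the mutant bound was 67.4-fold, and without NF152 the control bound was 23.0-fold. The adjusted p of Fgf15 was 0.0566 in mutants and 0.0384 in controls. With the animal as a block it was 0.000135 in mutants, so that 8 of 8 members were called there, and 0.000506 in controls. That block was 1 of 5 other settings, beside no low-count filter, DESeq2 size factors, DESeq2 and limma-voom. Of these 5, Fgf15 was called in 3 in mutants (adjusted p 2.6e-07 to 0.139 over the 5) and in 4 in controls. Leaving out 1 library at a time, Fgf15 was called in 2 of 8 fits in mutants (without the ileal libraries of NFVCT27 and NFVCT190; adjusted p 0.00446 to 0.114 over the 8 fits). It was called in 2 of 8 fits in controls, those without the ileal libraries of NF32 and NF152 (adjusted p 0.000388 to 0.0658), so that each of the other 6 libraries, left out, ended the call.

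Other genes of the pathway also differed along the intestine. Among 15 measured regulators of bile acid genes, 1 was called higher and 9 lower in mutant ileum than in mutant duodenum, and 2 higher and 8 lower in control ileum than in control duodenum. Malrd1, which raises FGF15 output in mouse enterocytes, averaged 403.5 ± 22.9 CPM in mutant ileum and 225.7 ± 48.0 CPM in mutant duodenum, and 525.7 ± 28.6 CPM in control ileum against 225.7 ± 36.3 CPM in control duodenum (SD, n = 4). Gata4, which is known to hold Slc10a2 down in the proximal intestine of mice, was 9.17-fold lower in mutant ileum (adjusted p = 1.5e-07) and 9.07-fold lower in control ileum (adjusted p = 6.7e-05) than in the duodenum. Of the other transport and metabolism genes, 4 of 15 tested were called higher and 7 lower in mutants, and 4 of 14 higher and 6 lower in controls. Abcc2, the apical exporter of organic anions, was 3.31-fold lower in mutant ileum and 4.07-fold lower in control ileum than in the duodenum, and Abcg2, the apical efflux pump, averaged 318 ± 42 CPM in mutant ileum against 151.7 ± 52.7 CPM in mutant duodenum and 465 ± 53 CPM in control ileum against 166 ± 24 CPM in control duodenum. Of 9 other FXR-responsive genes, 3 were called higher and 1 lower in mutants, and 3 higher and 2 lower in controls. Nos2, an inducible nitric oxide synthase, averaged 90.3 ± 46.8 CPM in mutant ileum and 4.63 ± 2.43 CPM in mutant duodenum, and 145.9 ± 95.6 CPM in control ileum against 7.22 ± 8.43 CPM in control duodenum. Cyp7a1, the first enzyme of bile acid synthesis in liver, had 0 counts in all 16 libraries.

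Genotype was then tested in the ileum. Among the members tested, Fabp6 lay farthest from the controls: it averaged 795.7 ± 425.4 CPM in mutant ileum and 3019.9 ± 909.2 CPM in control ileum (SD, n = 4), and it missed the threshold. Of the 8 members 7 passed the filter on low counts and 0 were called, where 3.28% of 14951 genes were called (1.77% higher, 1.51% lower). At an unadjusted p under 0.05 there were 2 members, Fabp6 and Slc51a, where 15.8% of genes lay under it. DESeq2 called 1 member, Fabp6, and limma-voom 0. Of the 7 members tested, the groups did not overlap for 1, Fabp6, lower in mutants, as for 9.93% of all genes tested (4.87% lower). Those of Nr0b2, also lower in mutants, did not overlap either, but the filter had removed it, so that share does not cover it. The median log2 fold change, mutant over control, of the 7 members was -0.14, beside -0.01 over all genes tested.

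Fabp6 had 1310.1, 950, 584 and 338 CPM in the ileum of NFVCT27, NFVCT38, NFVCT153 and NFVCT190, against 3215, 4137, 1956 and 2771 CPM in NF17, NF29, NF32 and NF152. The highest mutant library was below the lowest control library, and the mutants spread more in proportion (coefficient of variation 53.5% in mutants and 30.1% in controls). The fitted difference was 3.85-fold lower in mutants (log2 fold change -1.95, SE 0.46, unadjusted p = 0.00418, adjusted p = 0.0864, edgeR). It was called when all 16 libraries shared 1 estimate of spread (adjusted p = 0.00594), by DESeq2 (adjusted p = 0.000581), and in the fits without NFVCT27 (log2 fold change -2.29, adjusted p = 0.0496) or without NFVCT190 (log2 fold change -1.69, adjusted p = 0.0425). Over the 8 fits that each left out 1 library the log2 fold change ran from -2.29 to -1.69. The 8 members together made up 0.389%, 0.335%, 0.259% and 0.270% of all ileal counts in the mutants and 0.607%, 0.729%, 0.465% and 0.644% in the controls. Fabp6 itself is in that share, with 37818 counts over the mutant and 222706 over the control ileal libraries, beside 63724 and 95368 for Slc10a2. The share was not computed without Fabp6, so it does not describe the other members.

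The promoter of Fabp6 is shown beside that of Slc10a2, the ileal uptake transporter, and of Nr0b2, the other member whose ileal groups did not overlap. Each line gives the 250 bases before the annotated start, 5′ to 3′ on the gene's strand, from RefSeq on GRCm38.p6 (Fabp6 at chr11:43601563-43601812, minus strand; Slc10a2 at chr8:5105288-5105537, minus strand; Nr0b2 at chr4:133553126-133553375, plus strand). The motif searched was an inverted repeat (AGGTCA, any base, TGACCT), the element that FXR with a retinoid X receptor is known to bind, read on both strands. Capitals mark matches to it with at most 2 mismatches, or exact matches to its hexamer AGGTCA on either strand.
Fabp6: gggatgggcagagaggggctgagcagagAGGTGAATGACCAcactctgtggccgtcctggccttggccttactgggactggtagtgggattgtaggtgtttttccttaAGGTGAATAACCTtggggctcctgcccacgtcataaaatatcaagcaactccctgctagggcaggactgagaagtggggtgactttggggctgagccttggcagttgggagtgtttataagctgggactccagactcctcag
Slc10a2: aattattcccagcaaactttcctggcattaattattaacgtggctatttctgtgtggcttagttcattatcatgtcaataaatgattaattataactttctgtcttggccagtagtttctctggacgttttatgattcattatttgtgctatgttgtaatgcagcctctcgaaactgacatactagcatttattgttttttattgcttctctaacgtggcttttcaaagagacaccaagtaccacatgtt
Nr0b2: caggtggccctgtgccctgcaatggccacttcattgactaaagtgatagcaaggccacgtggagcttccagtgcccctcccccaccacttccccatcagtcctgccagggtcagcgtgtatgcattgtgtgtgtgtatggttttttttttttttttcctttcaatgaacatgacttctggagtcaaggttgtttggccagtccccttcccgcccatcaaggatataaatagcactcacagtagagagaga

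The Fabp6 window held AGGTGAATGACCA, which begins 222 bases before the start, and AGGTGAATAACCT, which begins 142 bases before it, each with 2 mismatches to the repeat. Among 32851 RefSeq promoter windows of 300 bases, 1.14% held a match with at most 2 mismatches. With at most 3 mismatches, found in 11.4% of windows, Slc51b held GGGTCATTCACCC (187 bases before the start) and Slc51a held AGGACTTTGTCCT (79 bases before it), and no match was in the Slc10a2, Nr0b2 or Nr1h4 window. Of the 8 members 6 had a window. Slc51b, Slc51a and Nr1h4 each held 1 hexamer, beginning 203, 58 and 214 bases before the start, and hexamers lie inside the repeat, so that the 2 searches overlap. The hexamer was found in 16.3% of all windows. These matches describe letters in the windows and do not show binding.

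Slc10a2, the uptake transporter, had 1276, 1281, 919 and 1301 CPM in the mutant ileal libraries and 1181, 1113, 1071 and 1622 CPM in the control ones (same animal order), and the groups overlapped. Its log2 fold change was -0.08 (SE 0.15, 95% interval -0.38 to 0.21, adjusted p = 0.862). The carrier was therefore also read against the uptake transporter inside each library, which removes the scaling between libraries. Per exon length, Fabp6 was 8.90, 6.43, 5.51 and 2.25 times Slc10a2 in the mutants, and 23.6, 32.2, 15.8 and 14.8 times in the controls. The ratio averaged 5.78 ± 2.75 in mutant ileum and 21.6 ± 8.1 in control ileum (SD, n = 4), and the groups did not overlap. This ratio was chosen with the Fabp6 values known, so it carries no test.

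**Figure D2:**
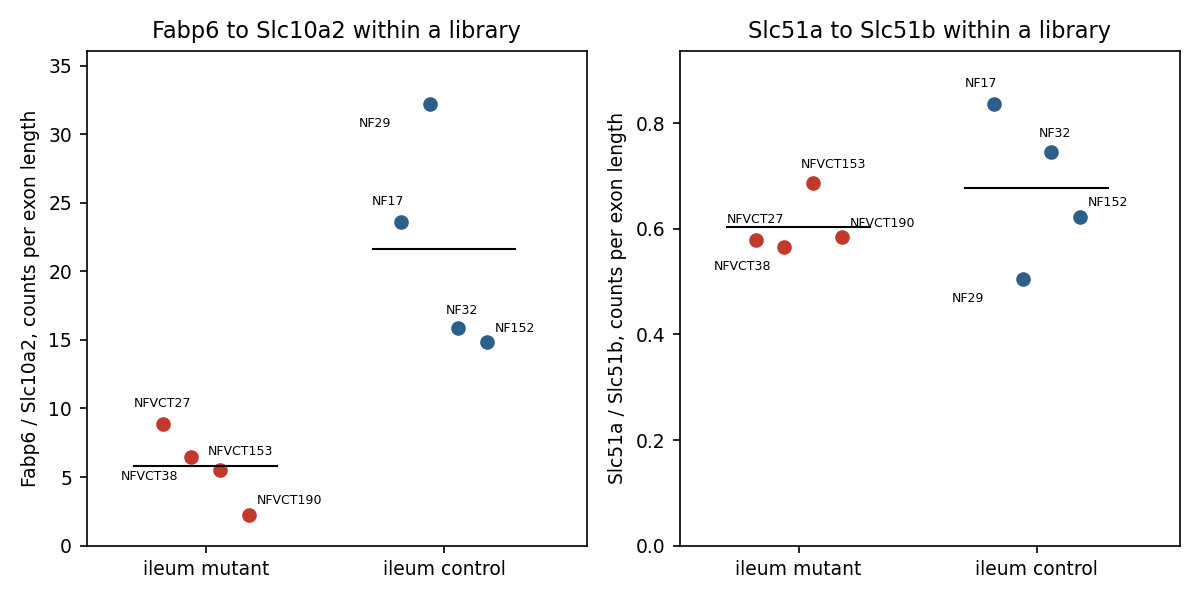
Ratios per exon length within each ileal library (points, labelled by animal) with the group mean (bars): Fabp6 over Slc10a2 on the left, Slc51a over Slc51b on the right. Fabp6 over Slc10a2 stays at 8.90 or less in the 4 mutants and at 14.8 or more in the 4 controls, whereas the ratio of the exporter subunits overlaps between genotypes.

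The exporter subunits kept close to each other. Slc51a had 557, 548, 444 and 511 CPM in mutant ileum and 697, 582, 529 and 647 CPM in control ileum. The groups overlapped, and the log2 fold change was -0.27 (SE 0.11, unadjusted p = 0.0302, adjusted p = 0.248). Slc51b had 214, 215, 143 and 194 CPM in mutant ileum and 185, 256, 157 and 230.1 CPM in control ileum, and its groups overlapped as well (log2 fold change -0.14, SE 0.16, adjusted p = 0.757). Per exon length, Slc51a was 0.604 ± 0.056 times Slc51b in mutant ileum and 0.677 ± 0.145 times in control ileum, and 0.666 ± 0.073 times in mutant duodenum and 0.665 ± 0.189 times in control duodenum (SD, n = 4). The ratio thus overlapped between genotypes in both tissues, although the level of both genes was about 4 times higher in the ileum.

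The receptor Nr1h4 had 224, 198, 147 and 178 CPM in mutant ileum and 171, 170, 179 and 184 CPM in control ileum. The mutant libraries lay on both sides of the narrow control range, and the log2 fold change was 0.06 (SE 0.12, 95% interval -0.17 to 0.29, adjusted p = 0.872). Abcc3 had 170.3, 115, 148 and 92.8 CPM in mutant ileum and 123, 224, 125 and 99.5 CPM in control ileum, which overlapped (log2 fold change -0.14, SE 0.30, adjusted p = 0.893). The sign of the uncalled differences of Slc10a2, Nr1h4 and Abcc3 turned when single libraries were left out.

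Fgf15 was low and uneven in both genotypes. It had 177, 61, 43 and 17 counts in the mutant ileal libraries (20.7, 3.84, 4.83 and 0.911 CPM) and 41, 14, 11 and 175 counts in the control ones (1.47, 1.25, 0.999 and 7.44 CPM). One library of each genotype, NFVCT27 and NF152, stood above the rest, and the groups overlapped. The log2 fold change was 1.28 (SE 1.1, adjusted p = 0.668). It was 0.06 without NFVCT27 and 2.47 without NF152, and the adjusted p ran from 0.414 to 0.989 over the 8 fits that each left out 1 library, so no direction is given for Fgf15.

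Nr0b2 had 0 counts in all 4 mutant ileal libraries and 8, 2, 1 and 10 counts in the control ones, which is 0.287, 0.179, 0.0908 and 0.425 CPM. Against the floor of 3 counts over the group it was at least 4.95-fold lower in mutants, or at least 3.17-fold lower when the deepest mutant library, NFVCT190, was left out. The filter on low counts removed it from the ileal test. It was called without that filter (adjusted p = 0.0198) and in the fit of all 16 libraries (adjusted p = 0.0499), and 21 control counts in all stand behind both values.

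**Figure D3:**
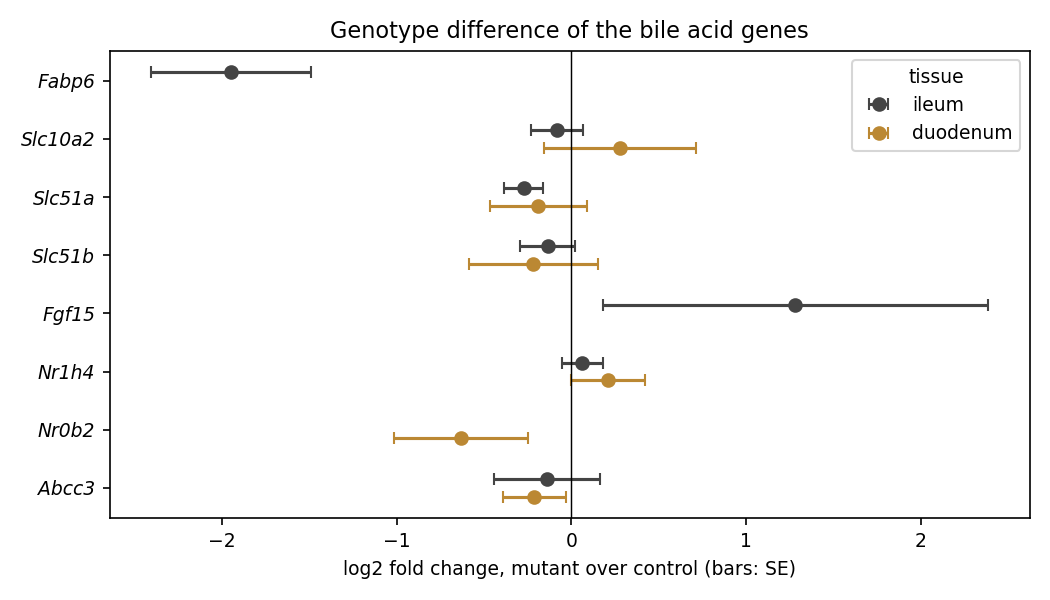
Log2 fold change of the 8 genes, mutant over control, with SE bars, for the ileum and the duodenum (8 libraries each). Of the values drawn, Fabp6 in the ileum lies farthest from 0. No point is drawn where a gene did not pass the filter on low counts, for Nr0b2 in the ileum and for Fabp6 and Fgf15 in the duodenum.

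Other cells and the region sampled were checked beside the Fabp6 values. The summed smooth muscle list was 0.624% to 0.862% of counts in mutant ileum and 0.434% to 0.572% in control ileum, and its score, the mean log2(CPM + 0.5) of 12 genes, was 8.58 ± 0.17 in mutants and 7.94 ± 0.22 in controls (SD, n = 4, two-sided exact permutation p = 0.0286, the smallest that 4 against 4 can give). Of those 12 genes 8 were called higher, among them Des, the intermediate filament of muscle (691 ± 142 CPM in mutants and 348 ± 72 CPM in controls, adjusted p = 0.00942). With that score as a covariate, the log2 fold change was -1.67 for Fabp6 (SE 1.04, adjusted p = 0.713), 0.54 for Slc10a2 and 0.57 for Slc51b, all uncalled, and 19 genes were called over the whole table. The part of the muscle difference in the Fabp6 values cannot be told apart from genotype, since the score did not overlap between the genotypes. The enterocyte score was 10.02 ± 0.05 in mutants and 10.05 ± 0.08 in controls (exact permutation p = 0.657). The summed enterocyte list was 2.23% to 2.33% of counts in mutant ileum and 2.54% to 2.72% in control ileum, which did not overlap and was lower in mutants, as Fabp6 was, and its part in the Fabp6 values was not tested. Among the genes of that list Anpep, Mep1b and Enpep were called lower. The score of 7 distal genes other than the members was 3.47 ± 0.16 in mutant and 3.52 ± 0.16 in control ileum (exact permutation p = 0.657), and that of 10 proximal genes 5.71 ± 0.28 and 5.71 ± 0.38 (exact permutation p = 1). The summed distal list was 0.0387% to 0.0636% of counts in mutants and 0.0511% to 0.115% in controls, which overlapped. Cubn, of that list, averaged 460 ± 104 CPM in mutants and 814 ± 276 CPM in controls, which overlapped and was uncalled (adjusted p = 0.222, edgeR). The part of the distal list in the Fabp6 values was not tested. The Paneth and goblet score was 11.26 ± 0.20 in mutants and 10.87 ± 0.09 in controls (exact permutation p = 0.0286), with 2 of 10 genes called higher (Clca1 and Spink4) and 3.56% to 4.56% of counts in mutants against 3.28% to 3.86% in controls; its part in the result was not tested. Hepatocyte genes made up 0.0962% to 0.124% of counts in mutant and 0.113% to 0.131% in control ileum, with 2 and 4 of 12 genes at 0 (score, exact permutation p = 0.629), and colonocyte genes 0.0303% to 0.0564% and 0.0294% to 0.0432%, with 2 of 8 at 0 in each (exact permutation p = 0.229). Most of the hepatocyte share was Cps1, at 1088 CPM in mutant and 1039 CPM in control ileum. Alb averaged 0.200 and 0.257 CPM there, so the share does not measure RNA from hepatocytes.

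**Figure D4:**
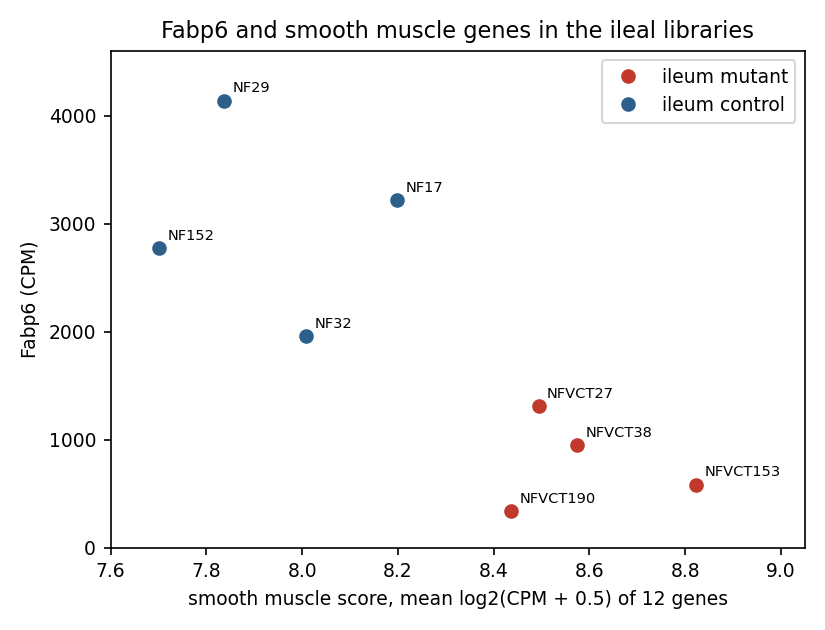
Fabp6 (CPM, vertical) against the smooth muscle score, the mean log2(CPM + 0.5) of 12 genes (horizontal), in the 8 ileal libraries, labelled by animal. The genotypes do not overlap on either axis, so the plot cannot part them.

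The other genes of the pathway were tested by genotype in the ileum as well. Of 15 regulators 0 were called higher and 1 lower: Malrd1 averaged 403.5 ± 22.9 CPM in mutants and 525.7 ± 28.6 CPM in controls (log2 fold change -0.40, SE 0.10, adjusted p = 0.0375). Of 14 other transport and metabolism genes 0 were called higher and 2 lower. Abcg2 averaged 318 ± 42 CPM in mutants and 465 ± 53 CPM in controls (log2 fold change -0.57, SE 0.12, adjusted p = 0.0169). Abcb1a, the apical P-glycoprotein, averaged 222 ± 68 CPM in mutants and 554 ± 147 CPM in controls (log2 fold change -1.34, SE 0.28, adjusted p = 0.0418). Of 9 other FXR-responsive genes 2 were called higher and 1 lower. Il18, an epithelial cytokine, averaged 85.6 ± 28.0 CPM in mutants and 39.6 ± 5.4 CPM in controls (adjusted p = 0.0122), and Asah2, the neutral ceramidase, 579 ± 116 CPM in mutants and 362 ± 69 CPM in controls (adjusted p = 0.0473). Car12, a carbonic anhydrase, averaged 15.6 ± 1.4 CPM in mutants and 26.4 ± 6.4 CPM in controls (adjusted p = 0.0141). The median log2 fold changes of these lists were 0.04, -0.08 and 0.02, beside -0.01 over all genes tested. The part of the muscle and Paneth and goblet scores in these genes was not tested.

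In the duodenum the same genotype comparison called 0 of 6 members tested, where 0.394% of 14703 genes were called, and 0 members lay under an unadjusted p of 0.05, where 8.71% of genes did. DESeq2 and limma-voom called 0 as well, with 1 member, Nr0b2, under an unadjusted p of 0.05 by limma-voom. No member's groups were separate there, against 5.69% of all genes tested. Nr0b2 had 6.22, 4.02, 1.62 and 2.10 CPM in the mutant libraries and 5.55, 5.89, 3.81 and 5.94 CPM in the control ones. NFVCT27 exceeded every control, so the groups overlapped, and the log2 fold change was -0.63 (SE 0.38, adjusted p = 0.734). Slc51a had 178, 131, 138 and 67.0 CPM in mutant duodenum and 140.3, 198, 116 and 131 CPM in control duodenum, and Slc51b 65.4, 48.3, 41.8 and 20.4 CPM in mutants and 58.5, 69.2, 46.4 and 30.8 CPM in controls. The lowest value of both belonged to NFVCT190, which also had the highest acinar share, 21.1%. NFVCT27, next among the mutants with an acinar share of 13.25%, had the highest mutant value of both. NFVCT190 also had the lowest duodenal enterocyte score, 9.49, with 1.35% of counts. That score was 10.04 ± 0.38 in mutant and 10.05 ± 0.24 in control duodenum, and its part in these values was not tested. With the acinar score as a covariate the log2 fold change was -0.25 for Slc51a (adjusted p = 0.945) and -0.23 for Slc51b (adjusted p = 0.98). Their log2 fold changes were -0.19 (SE 0.28) for Slc51a and -0.22 (SE 0.37) for Slc51b. Abcc3 had 319, 294, 199 and 239.5 CPM in mutants and 344, 289, 338 and 241 CPM in controls (log2 fold change -0.21, SE 0.18), Nr1h4 35.1 to 67.8 CPM in mutants and 37.0 to 46.7 CPM in controls (0.21, SE 0.21), and Slc10a2 a log2 fold change of 0.28 (SE 0.44). All 6 adjusted p-values were 0.734 or more. The score of proximal genes was 7.90 ± 0.17 in mutant and 8.37 ± 0.31 in control duodenum (exact permutation p = 0.0571), and that of acinar genes 10.64 ± 1.83 and 11.43 ± 0.59 (exact permutation p = 0.429). The Paneth and goblet score was 10.29 ± 0.11 in mutants and 9.87 ± 0.27 in controls, and the colonocyte score 1.34 ± 0.12 in mutants and 1.63 ± 0.10 in controls (exact permutation p = 0.0286 each, the smallest possible). The distal score was 0.425 ± 0.117 in mutants and 0.669 ± 0.197 in controls (exact permutation p = 0.0571). The part of these lists in the duodenal values was not tested.

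Of the other pathway genes in the duodenum, 0 of 15 regulators and 0 of 9 other FXR-responsive genes were called, and 1 of 15 transport and metabolism genes was called lower. That gene was Ugt1a1, which conjugates bilirubin with glucuronic acid, at 65.3 ± 7.1 CPM in mutants and 101.3 ± 5.4 CPM in controls (log2 fold change -0.64, SE 0.11, adjusted p = 0.0378). Cyp3a11, a cytochrome that hydroxylates bile acids and drugs, averaged 164 ± 133 CPM in mutant and 1467 ± 896 CPM in control duodenum. Its groups did not overlap and it missed the threshold (log2 fold change -3.16, SE 0.66, adjusted p = 0.115). The same held for Cyp3a25 (66.4 ± 27.1 against 207.5 ± 70.3 CPM, adjusted p = 0.0919). In the ileum both genes were uncalled and did not overlap, with Cyp3a11 at 28.2 ± 20.7 CPM in mutants and 140.2 ± 44.9 CPM in controls. Cyp3a25 had 29.2 ± 12.4 CPM in mutant and 98.8 ± 40.0 CPM in control ileum. Cyp3a13 overlapped between genotypes in both tissues.

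The difference between the tissues in the genotype effect, ileum minus duodenum, was called for 0 of the 8 members, where 0.0441% of 15882 genes were called. With the animal as a block 16 genes were called instead of 7, and again 0 members. DESeq2 and limma-voom also called 0. One member, Nr0b2, lay under an unadjusted p of 0.05 (adjusted p = 0.684, edgeR), where 4.41% of genes did. For Fabp6 the difference was -0.54 on the log2 scale with an SE of 1.41, which 6 mutant and 12 control duodenal counts leave wide, so that a genotype effect particular to the ileum was not detectable for Fabp6 at this depth. For Slc10a2 it was -0.33 (SE 0.43), and for Slc51a, Slc51b, Nr1h4 and Abcc3 it lay between -0.13 and 0.10.

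The genes most like 3 of the members were found by the root mean square difference of centred log2(CPM + 0.5) over the 16 libraries, and the points share libraries and tissues. The candidates were 10672 genes with a mean of at least 5 CPM. The members themselves, identifiers without a symbol, and Gm and Rik genes were left out. Among the candidates, Slc10a2 was most like Tmigd1 (0.372), Slc5a8 (0.553) and Slc34a2 (0.598). Tmigd1, a membrane protein of the immunoglobulin superfamily, averaged 997 CPM in mutant ileum, 900.2 CPM in control ileum, 1.58 CPM in mutant duodenum and 0.807 CPM in control duodenum. Slc5a8 carries monocarboxylates with sodium, and Slc34a2 carries phosphate with sodium. Fabp6 had the same 3 neighbours at larger distances, led by Slc34a2 (1.21), which averaged 342.5 CPM in mutant ileum and 557.5 CPM in control ileum. Fgf15 was most like Marcksl1 (0.823), Ereg (0.845) and Ildr1 (0.864). Marcksl1 averaged 37.9 CPM in mutant ileum and 18.5 CPM in control ileum, and Ereg, the growth factor epiregulin, 34.8 CPM in mutant ileum and 17.5 CPM in control ileum.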

How the data were processed

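Total RNA of 16 libraries was sequenced after removal of ribosomal RNA, with a stranded kit and PCR, per the labels' protocols. STAR 2.5.3a, Bowtie2 2.2.8, HTSeq 0.6.1p1 and the build mm39 are among the items listed in the submitters' processing notes, in no stated order. How the counting used strand is not given in the sources used here, so reads of a gene and of an antisense partner cannot be told apart. Per the file headers and their values, the values deposited are unnormalised counts of reads for each Ensembl gene. Symbols were matched for 52083 of 55359 identifiers.

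Counts were analysed with edgeR 4.0.16 in R 4.3.3 (TMM, filterByExpr by group, robust quasi-likelihood F test, Benjamini-Hochberg over all genes tested, called at an adjusted p under 0.05), after tests on simulated data. Adjusted p-values are from edgeR unless DESeq2 1.42.0 or limma 3.58.1 (voom) is named. Only the libraries compared entered each fit. CPM was computed from the deposited counts with TMM factors over all 16 libraries. RPKM divides CPM by exon length from GENCODE on GRCm38, since no mm39 genome was used here. SE is the log2 fold change over the square root of F. The 95% intervals are a normal approximation from that SE, so they are narrower than the F test would give. A group at 0 counts is set against 3 counts over its 4 libraries; this floor and the depth cover counting error only, as PCR copies are not independent molecules. Promoters are from RefSeq.

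The members and lists were chosen with earlier results of these data known. Named genes are the members, the genes of each list called in a comparison or of smallest p, and the nearest 3 to Fabp6, Slc10a2 and Fgf15. Libraries of a group are separate animals, and p-values measure the spread between them. Tissues of the same animal deviated together (correlation of deviations 0.124 to 0.361 in the 8 animals, against at most 0.241 with another animal), so the animal was fitted as a block in the alternative. Genotype comparisons in both tissues and tissue comparisons share libraries and are not independent. No 2 libraries of a group agreed within sampling noise.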

Additional observations from a re-analysis of the deposited data

Results flagged for a closer look

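Of 29 sets of 4 libraries examined, 2 held a library far from the other 3, and chance alone gives about 1 in 20 such sets. In mutant ileum, NFVCT153 had 919 CPM of Slc10a2, where the nearest other mutant had 1276 CPM. In control ileum, NF152 had 7.44 CPM of Fgf15, where the nearest other control had 1.47 CPM.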

How the results depend on the processing

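Refits of single members numbered 489. Where a group was at 0, results were not counted: Fgf15 between tissues, Nr0b2 by genotype in the ileum and between tissues in mutants, and both in the interaction. Fabp6 and Fgf15 by genotype in the duodenum did not pass the filter and were not counted either. Of the 489 refits, 461 kept their direction and side of the threshold, 4 gave a call (all for Fabp6 in the ileum, lower in mutants, by DESeq2, in the fit of all 16 libraries, and without NFVCT27 or NFVCT190) and 24 turned an uncalled sign. Among the results not counted, leaving out single libraries ended the call of Fgf15 between tissues in 6 of 8 control fits and gave one in 2 of 8 mutant fits, and Nr0b2 by genotype in the ileum was called without the low-count filter (adjusted p = 0.0198) and in the fit of all 16 libraries (adjusted p = 0.0499). Counts of genes called moved most. For genotype in the ileum, 490 became 1096 without the low-count filter, 875 by DESeq2 and 19 with the smooth muscle score, and members called became 1, 1 and, in the fit of all 16 libraries, 2. In the duodenum, 58 became 169 without the filter, 310 by DESeq2, 151 in the fit of all 16 libraries and 31 without the duodenal libraries of highest acinar share (NFVCT190 and NF17), a setting chosen after seeing the data. For the interaction, 7 became 15 without the filter, 38 by DESeq2 and 16 with the animal as replicate block; the block changed no call of a member other than that of Fgf15 between tissues in mutants. The causes were not tested.

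Leaving out 1 library at a time gave 272 to 472 genes and 0 to 1 members in the ileum, 27 to 61 genes in the duodenum, 3 to 13 for the interaction, and 7 to 8 members between tissues in each genotype. Signs that turned, all uncalled, were as follows. In the ileum, Slc10a2 was 0.54 and Slc51b 0.57 with the muscle score, and without 1 library Slc10a2 ran from -0.14 to 0.061, Nr1h4 from -0.035 to 0.15 and Abcc3 from -0.29 to 0.17. In the duodenum, Slc51b was 0.074 without the high-acinar libraries, and without 1 library Slc10a2 ran from -0.021 to 0.54, Slc51a from -0.39 to 0.014 and Slc51b from -0.47 to 0.0047. In the interaction, Slc51a was 0.013 by limma-voom, Slc51b -0.20 and Abcc3 -0.019 without the high-acinar libraries, and without 1 library Slc51a ran from -0.30 to 0.12, Slc51b from -0.15 to 0.34, Nr1h4 from -0.29 to 0.049 and Abcc3 from -0.054 to 0.40. DESeq2 gave no p for Fgf15 between tissues in controls. Depth limits Fgf15, Nr0b2 in the ileum and Fabp6 in the duodenum.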
